A study of Mus musculus with 6 samples.

Results

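Claudins and their partners at the tight junction were described in mouse male gonadal somatic cells (soma) and embryonic stem cells (ESC). The 9 genes are the claudins Cldn3, Cldn4, Cldn5, Cldn6, Cldn7, Cldn9 and Cldn11, the membrane protein occludin (Ocln) and the scaffold protein ZO-1 (Tjp1). They were chosen by name, with earlier results of these data known. They were found on the array through the transcript each probe was designed to, which gave 11 probes. All 9 genes had a probe and passed the filter on dim probes, out of 19670 genes tested. Soma came from genital ridges of male embryos at E13.5, of MCH x C57BL6/J background, and carried the transgene written Oct5<delta>PE-GFP in the labels. ESC were the male line VR15, labelled Vasa::RFP Tg, and all 3 ESC samples come from this 1 line. RNA of 3 samples of each kind was labelled with Cy3 and hybridised to 6 arrays of 1 colour, 1 sample per array. The design calls the samples biological replicates, and p-values measure the spread between them. Whether soma samples pool several embryos, and how ESC were grown, is not given in the sources used here. Soma is a mixture of gonadal cell types, so fewer cells of a type and less RNA per cell cannot be told apart in any value below.

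Tight junctions seal the space between neighbouring epithelial or endothelial cells near their apical side. Claudins are small membrane proteins that join within and between cells into strands, and the claudins a cell makes set which ions and molecules pass between cells. Occludin lies in the same strands, and ZO-1 ties strand proteins to the actin cytoskeleton. In the testis, Sertoli cells later close the blood-testis barrier with such strands, in which claudin-11 is a main component, while claudin-6 and claudin-7 are known from early embryonic and simple epithelia.

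Promoter sequences of RefSeq (build GRCm38.p6, each running from 250 bases before to 50 bases after an annotated start) were matched by symbol for 8 of the 9 genes. The windows of the 3 genes whose probes differed most in favour of ESC are shown with those of both genes whose probes were brighter in soma. These windows were chosen by the direction of the difference, so nothing is drawn from how a motif falls between them. The Cldn3 window is chr5:134985964-134986263 on the plus strand and that of Cldn4 is chr5:134946885-134947184 on the minus strand. The Cldn6 window is chr17:23679115-23679414, that of Cldn5 is chr16:18776597-18776896 and that of Cldn11 is chr3:31149670-31149969, all on the plus strand. Capitals mark CACCTG on either strand, the E-box bound by the Snail and Zeb repressors.
Cldn3: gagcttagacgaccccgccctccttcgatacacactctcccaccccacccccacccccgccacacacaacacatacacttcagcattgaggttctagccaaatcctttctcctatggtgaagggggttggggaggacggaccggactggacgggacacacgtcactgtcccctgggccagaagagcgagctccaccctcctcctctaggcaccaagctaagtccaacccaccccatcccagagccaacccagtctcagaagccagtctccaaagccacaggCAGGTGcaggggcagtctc
Cldn4: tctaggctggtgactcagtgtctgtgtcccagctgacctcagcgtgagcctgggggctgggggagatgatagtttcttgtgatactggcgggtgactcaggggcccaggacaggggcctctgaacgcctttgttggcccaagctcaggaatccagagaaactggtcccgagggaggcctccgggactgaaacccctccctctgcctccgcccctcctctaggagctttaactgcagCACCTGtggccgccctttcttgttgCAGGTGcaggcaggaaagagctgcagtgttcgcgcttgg
Cldn6: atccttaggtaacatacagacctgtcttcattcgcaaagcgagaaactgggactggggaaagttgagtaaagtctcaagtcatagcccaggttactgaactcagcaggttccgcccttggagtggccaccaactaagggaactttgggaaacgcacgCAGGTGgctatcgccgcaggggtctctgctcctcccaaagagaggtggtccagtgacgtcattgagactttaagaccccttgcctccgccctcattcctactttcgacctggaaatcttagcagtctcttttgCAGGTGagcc
Cldn5: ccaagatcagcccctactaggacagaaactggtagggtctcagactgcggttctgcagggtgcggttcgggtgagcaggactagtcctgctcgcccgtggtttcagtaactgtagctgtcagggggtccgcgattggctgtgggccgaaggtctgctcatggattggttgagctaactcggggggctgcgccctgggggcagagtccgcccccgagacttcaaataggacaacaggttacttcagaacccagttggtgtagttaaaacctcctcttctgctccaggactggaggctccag
Cldn11: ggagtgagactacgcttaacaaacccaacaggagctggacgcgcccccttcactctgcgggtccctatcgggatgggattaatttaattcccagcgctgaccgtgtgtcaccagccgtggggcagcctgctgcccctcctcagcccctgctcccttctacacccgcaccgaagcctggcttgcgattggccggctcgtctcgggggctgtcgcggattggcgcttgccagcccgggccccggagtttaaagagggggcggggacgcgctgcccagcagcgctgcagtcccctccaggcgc

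CACCTG stood in the windows of Cldn3 (1 match), Cldn4 (2 matches) and Cldn6 (2 matches), and in neither the Cldn5 nor the Cldn11 window. Counted with the annotated start as base 0, the matches began at base 31 in Cldn3, at -14 and 11 in Cldn4, and at -93 and 40 in Cldn6. Over all 10 windows of the 8 genes (Cldn7 and Ocln have 2 each, those of Ocln overlapping), 6 windows of 5 genes held it (with 1 site counted in both Ocln windows), against 20.2% of 32851 windows in the whole table. The remaining matches lay in the second Cldn7 window (-97 and -57) and in the Ocln windows, at -213 and -68 in the first and at 7 in the second; -213 and 7 are the same site, read from 2 annotated starts. The windows of Tjp1, Cldn5 and Cldn11 and the first Cldn7 window held none, and no window was matched for Cldn9. The GC box GGGCGG, bound by Sp factors, was in 9 of the 10 windows and 35.7% of all windows, and TATAAA was in none of the 10 and 13.6% of all. The Grainyhead motif AACCNGTT was in the Cldn5 window alone, at base -20, and in 2.09% of all windows. Each motif was searched on both strands, and no match here overlapped another motif. CpG pairs per window ranged from 7 in the first Cldn7 window to 31 in Tjp1, with 9, 9 and 10 in Cldn3, Cldn4 and Cldn6, 12 in Cldn5, 17 in the second Cldn7 window, 24 in Cldn11, and 24 and 17 in Ocln, against a median of 7 over all windows. These letters describe the windows, and no factor's binding was measured.

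**Figure D1:**
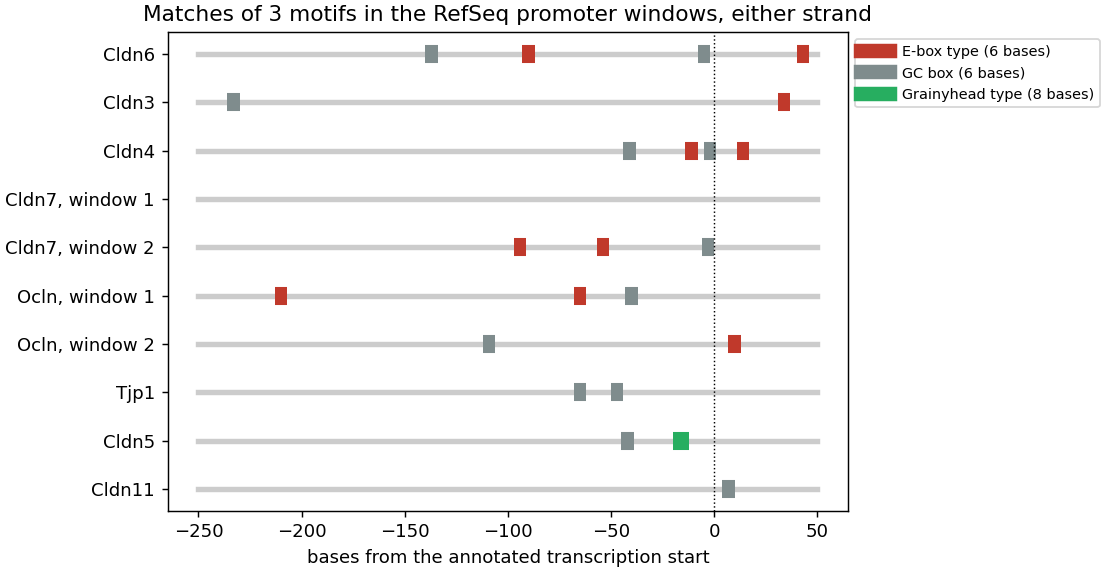
Matches of 3 motifs in the RefSeq promoter windows of 8 genes, by distance in bases from the annotated start (dotted line). Red bars are the E-box, grey bars the GC box and the green bar the Grainyhead motif; Cldn5, Cldn11, Tjp1 and the first Cldn7 window carry no red bar.

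Values are the scanner software's processed signal, an intensity without unit. For comparison, log2 signals were scaled to the array's 75th percentile, which was 1245 to 1388 on soma arrays and 959 to 1016 on ESC arrays. A probe reads its own target with its own efficiency, so levels are compared between groups and not between genes. Across the array, 84.9% of 19670 genes passed the threshold (limma, Benjamini-Hochberg adjusted p under 0.05), 46.6% with higher signal in ESC and 38.3% with higher signal in soma. Among the 9, ESC had the higher signal for 7 and soma for 2. By at least 2-fold, 6 of the 9 were higher in ESC, against 24.2% of all genes, and 2 in soma, against 23.2%. The groups did not overlap for any of the 9 genes, which held for 87.2% of all genes. The median log2 difference of the 9 genes was 2.20, against 0.14 over all genes tested. As the 9 were chosen with earlier results of these data known, these counts and medians describe them and are no test of the set. Under other scalings the median of all genes was 0.02 (quantile), 0.34 (array median) and -0.08 (spike-in). The filter let some genes in through 1 group alone: 4 of the 9 (Cldn5, Cldn7, Cldn9 and Tjp1) were well above background on all 6 arrays, and 3 of these 4 were higher in ESC. The median of these 4 was 0.98, against 0.21 over the 16082 genes that pass when all 6 arrays are required.

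**Figure D2:**
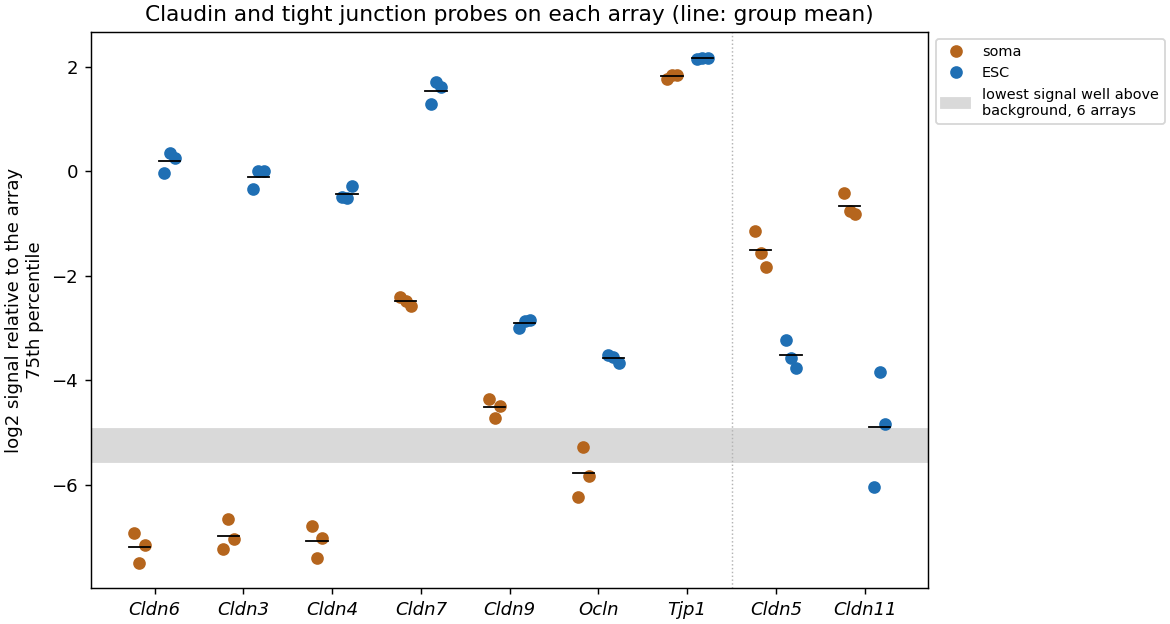
Scaled log2 signal of the 9 genes on each array (points) with group means (lines), 3 soma and 3 ESC arrays; 0 is the array's 75th percentile. The grey band spans the 6 arrays' lowest signal well above background, and all soma points of Cldn3, Cldn4 and Cldn6 lie under it.

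The largest differences were those of Cldn6, Cldn3 and Cldn4, strand-forming claudins measured in ESC and not well above background on any soma array. Cldn6, a claudin of embryonic epithelia, had signals of 11.04, 7.76 and 8.80 on soma arrays 1 to 3 and of 998, 1234 and 1150 on ESC arrays 1 to 3. The scaled difference was 7.37 ± 0.17 (log2, SE, n = 3 and 3; limma, adjusted p = 4.77e-07). As soma lay in the background, the ESC level is given as at least 44.2-fold higher, which sets the ESC mean against the lowest signal well above background on each soma array. Cldn3, a barrier-forming claudin of epithelia and of Sertoli cells, had signals of 8.90, 13.8 and 9.47 in soma and 800.4, 978 and 962 in ESC. Its difference was 6.86 ± 0.18 (adjusted p = 6.41e-07 by limma), and the ESC level was at least 35.8-fold higher. All 3 ESC arrays stood far above every soma array for both genes.

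Cldn4, a barrier claudin of ducts and other epithelia, lies next to Cldn3 in the gene order of chromosome 5 and was read by 2 probes. The brighter probe gave 12.2, 8.23 and 9.66 in soma and 722, 687 and 788 in ESC. Its difference was 6.64 ± 0.17 (limma, adjusted p = 5.96e-07), at least 28.8-fold higher in ESC. The other probe gave 15.4, 7.79 and 15.4 in soma and 397, 387 and 439 in ESC, a difference of 5.48 ± 0.31 and at least 16.0-fold. Both Cldn4 probes thus separated the groups in the same direction, with soma in the background on each. The size of these 3 differences depends on how the spots were read. With normexp correction, an alternative that also adds an offset of 50 and starts from the spots' median signal, the differences of Cldn6, Cldn3 and Cldn4 were 4.16, 3.85 and 3.46, each below its bound above, with the largest adjusted p of the 3 at 1.8e-07 (limma).

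Cldn7 and Cldn9 were measured in both groups on all 6 arrays. Cldn7, a claudin of lateral epithelial membranes that binds the adhesion protein Epcam, had signals of 253, 249.8 and 209 in soma (mean 237 ± 24.6, SD, n = 3) and 2485, 3166 and 2909 in ESC (mean 2854 ± 344, SD, n = 3). Its scaled difference was 4.01 ± 0.12 (limma, adjusted p = 9.49e-07), 16.2-fold higher in ESC, and it kept most of its size with normexp correction (3.54). Cldn9, known from the inner ear and adjacent to Cldn6 in the gene order of chromosome 17, had signals of 65.6, 53.0 and 55.6 in soma and 127, 133 and 134 in ESC. The Cldn9 difference was 1.61 ± 0.11 (limma, adjusted p = 2.12e-05), 3.06-fold higher in ESC, and 0.99 with normexp correction. The soma arrays did not overlap the ESC arrays for either gene.

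Cell types that carry epithelial claudins and could be present in soma were read through marker lists. Of 6 mesonephric epithelium markers tested, ESC was higher for 4 and soma for 2, and their summed scaled signal (75th percentile as 1) was 3.49, 3.17 and 2.69 on soma arrays and 6.04, 13.05 and 10.1 on ESC arrays. Of 5 mesothelium markers, 2 were higher in each group and 1 did not pass, with sums of 0.686 to 0.937 in soma and 2.04 to 3.28 in ESC. Germ cell markers were detected in soma as well: all 9 tested were well above background on every soma array, with sums of 6.69, 8.64 and 11.6 there and 17.6 to 18.9 in ESC. Of these 9, 4 were higher in ESC, 2 in soma and 3 did not pass. The 2 higher in soma were Dazl (-2.06) and Nanos2, not above background in ESC and at least 16.2-fold lower there. What these cells contribute to the soma signal of Cldn7 and Cldn9 was not tested.

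Occludin (Ocln), which lies in the strands beside claudins, was a dim gene that separated the groups. Its brighter probe gave 17.8, 35.9 and 22.0 in soma and 89.0, 83.2 and 76.0 in ESC. It was well above background on 1 soma array and on all 3 ESC arrays, and every ESC value exceeded every soma value. The scaled difference was 2.20 ± 0.24 (limma, adjusted p = 0.000212), 4.60-fold higher in ESC, and 0.96 with normexp correction. A second Ocln probe was well above background on none of the 6 arrays, with signals of 8.27 to 12.2 in soma and 8.21 to 12.1 in ESC, and gave no comparison.

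ZO-1 (Tjp1), the scaffold under the strands, was bright in both groups and differed least of the 9. Its processed signals were 4524, 4950 and 4484 in soma and 4473, 4401 and 4318 in ESC. Before scaling, every ESC array thus lay just under every soma array, and after scaling to the 75th percentile, which was lower on ESC arrays, every ESC array lay above. The scaled log2 signals were 1.76, 1.83 and 1.85 in soma and 2.14, 2.17 and 2.17 in ESC, a difference of 0.35 ± 0.05 (limma, adjusted p = 0.000746), 1.27-fold. Tjp1 is the gene whose call rested on the scaling: the difference was 0.54 with the array median, 0.13 with quantile normalization (adjusted p = 0.0484) and 0.13 with spike-in scaling, where it did not pass (adjusted p = 0.193). Relative to the median of all genes it was 0.20 with the 75th percentile and 0.11 with quantile normalization. Array median and spike-in scaling shift all genes of an array alike, so their value of 0.20 is the same by construction.

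**Figure D3:**
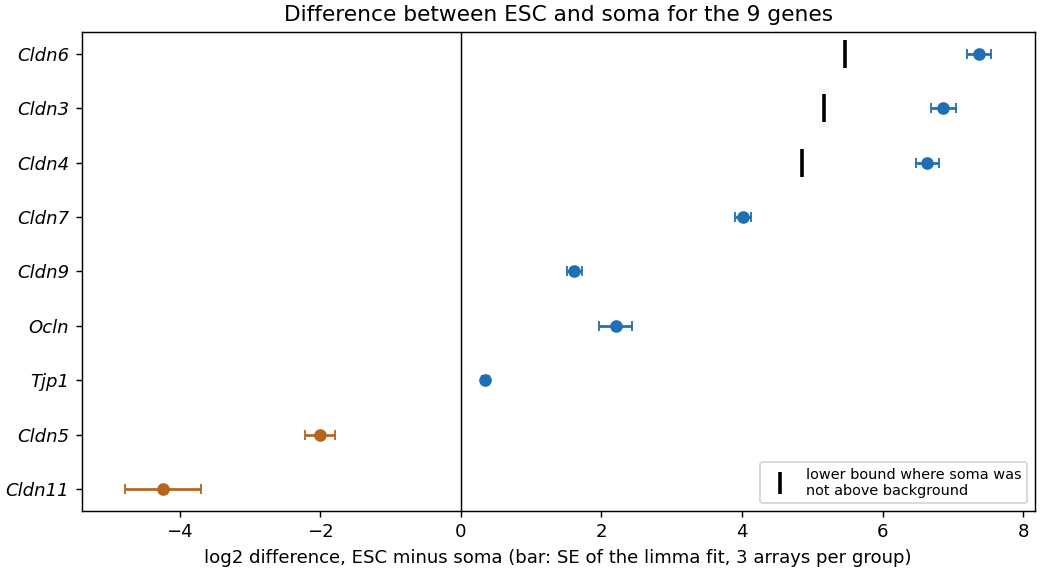
Log2 difference, ESC minus soma, of the 9 genes (points) with the SE of the limma fit (bars), 3 arrays per group. Black ticks mark the lower bounds of Cldn6, Cldn3 and Cldn4; 7 genes lie right of 0, and Cldn5 and Cldn11 lie left of it at -2.00 and -4.24.

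Cldn5 and Cldn11 went the other way, with higher signal in soma. Cldn11, the strand claudin of Sertoli cells and of central myelin, had signals of 997, 825 and 711 in soma (mean 844 ± 144, SD, n = 3) and 15.6, 68.3 and 33.6 in ESC (mean 39.2 ± 26.8, SD, n = 3). It was well above background on all soma arrays and on 1 ESC array, and its ESC values were the most spread of the 9 genes (SD 1.10 on the log2 scale). The scaled difference was -4.24 ± 0.54 (limma, adjusted p = 0.000469), 18.9-fold lower in ESC. It was -3.67 without ESC 1 and -4.77 without ESC 2, and -2.55 with normexp correction. Cldn5, the main claudin of endothelial cells and also known from Sertoli cells, had signals of 601.5, 472 and 350.2 in soma and 109, 82.4 and 70.7 in ESC. The Cldn5 difference was -2.00 ± 0.21 (limma, adjusted p = 0.000204), 4.01-fold lower in ESC, and -1.39 with normexp correction. Both genes were lower on every ESC array than on any soma array.

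Markers of the cell types known for these claudins were present in soma. All 15 Sertoli markers tested were higher in soma, with a summed scaled signal of 148.2, 134.8 and 123.9 on soma arrays and 4.45, 6.01 and 5.36 on ESC arrays. Sox9 and Amh, which define Sertoli cells, were well above background on all soma arrays and on no ESC array. Of 13 endothelial markers, 7 were higher in soma, 3 in ESC and 3 did not pass, and their sums were 14.4 to 17.3 in soma and 19.6 to 20.3 in ESC. Among them Cdh5, Tie1, Emcn and Sox18 were well above background on all soma arrays and on no ESC array, while Pecam1 (0.94), Tek (0.48) and Egfl7 (0.99) were higher in ESC. The 2 probes of Kdr disagreed, the brighter at 0.26, which did not pass, and the other at -4.09. Of 4 myelin and Schwann markers tested, soma was higher for 3, and 1 did not pass, with sums of 1.58 to 1.70 in soma and 0.836 to 0.964 in ESC. The part of any of these cell types in the Cldn5 and Cldn11 signals was not tested.

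**Figure D4:**
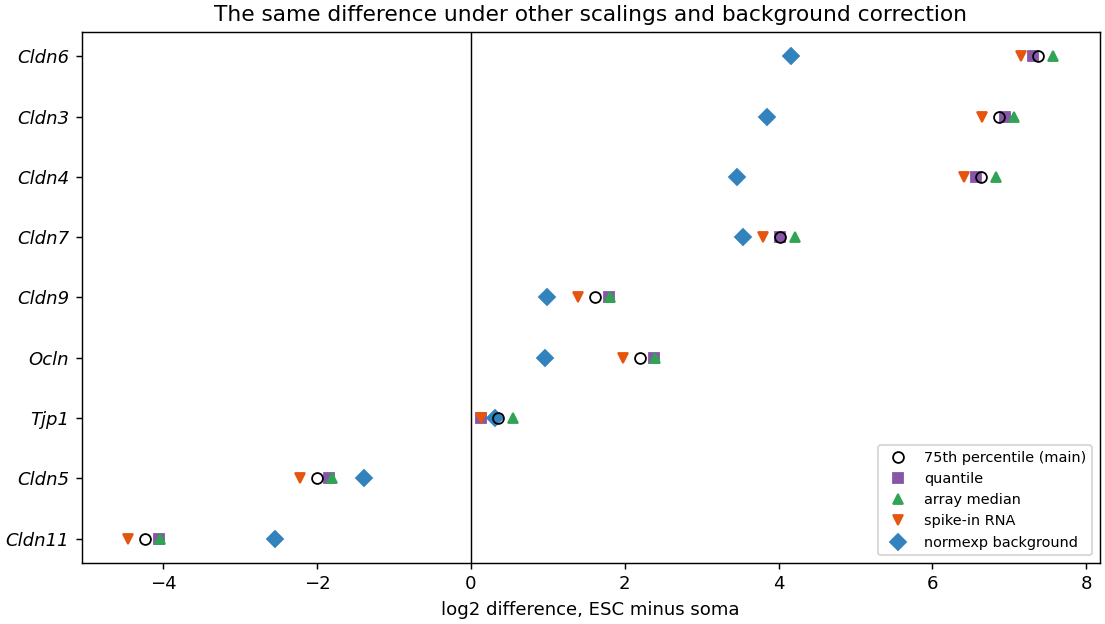
Log2 difference, ESC minus soma, of the 9 genes under 4 scalings and with normexp background correction (symbols). The sign is the same in every setting drawn; Tjp1 lies at 0.13 with quantile and spike-in scaling, and Cldn3, Cldn4 and Cldn6 move from 6.64 to 7.37 down to 3.46 to 4.16 with normexp.

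The labelled cell types and the layout of the arrays bear on all of these values. Of 12 pluripotency markers, 11 were higher in ESC, with sums of 10.1 to 13.3 in soma and 360.3 to 387 in ESC; the exception was Nanog, whose probe read 430 to 550.3 in soma and 115 to 133 in ESC, and whose target was not checked. Soma had the higher signal for all 9 interstitial and Leydig markers tested and for all 8 blood cell markers tested. Blood cell markers summed to 336.5 to 344 on soma arrays and 0.647 to 0.977 on ESC arrays. Soma 1 and 2 were on slide 1 and soma 3 shared slide 2 with the ESC arrays, but each of the 3 scans read arrays of 1 group, and what the scan adds to a difference cannot be told apart from the group. On slide 2 alone the 9 genes kept their directions and their calls, with differences of 7.34 for Cldn6, 6.93 for Cldn3, 6.58 for Cldn4, 4.10 for Cldn7, 1.58 for Cldn9, 2.25 for Ocln, 0.31 for Tjp1, -1.69 for Cldn5 and -4.09 for Cldn11 (largest adjusted p 0.0231 by limma, with 1 soma array assumed to vary like the ESC arrays).

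The rest of the claudin family was mostly dim in both groups. Of 19 other claudins and claudin domain proteins on the array, 13 did not pass the filter and 6 were tested: 1 was higher in ESC, 4 in soma and 1 did not pass, with a median difference of -1.34. The 3 of them above background on all 6 arrays had a median of 0.16. Cldn12, which is unusual among claudins in lacking the tail that binds ZO proteins, had signals of 2313 to 2523 in soma and 2913 to 2987 in ESC, a difference of 0.70 ± 0.05. Cldn15, a channel-forming claudin of the intestine, had signals of 326 to 331 in soma and 32.0 to 43.3 in ESC, a difference of -2.67 ± 0.14. In ESC it was well above background on 2 arrays. Tmem114, a relative of the claudins, was in soma (306 to 499.8) and not above background in ESC, at least 10.6-fold lower there. Cldnd1, a claudin domain protein, differed by -1.70 ± 0.06. The fourth, Cldn14, had signals of 54.2 to 67.2 in soma and was not above background in ESC, at least 1.61-fold lower there; it was named after its values were seen. With normexp correction 3 of these genes were higher in soma.

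Among other tight junction genes the scaffold Tjp3 and the adhesion molecules Ildr1 and Jam2 had the largest differences in favour of ESC. Of 18 tested, 11 were higher in ESC, 4 in soma and 3 did not pass, and the median difference was 0.81, or 0.44 over the 14 above background on all 6 arrays. Tjp3, which encodes the scaffold ZO-3, had signals of 61.9, 92.0 and 71.7 in soma and 3470, 3556 and 3997 in ESC, a difference of 6.05 ± 0.15 (66.5-fold). In soma it was well above background on 2 arrays. The scaffolds Tjp1 and Tjp3, members of the same family, thus differed by 0.35 and 6.05. Ildr1, an angulin of tricellular contacts, had signals of 19.9 to 21.6 in soma, where it was not above background, and 681 to 928 in ESC, at least 31.1-fold higher. Jam2, a junctional adhesion molecule, had signals of 684 to 831 in soma and 5455 to 6235 in ESC, a difference of 3.39 ± 0.08. Its relative Jam3 was higher in soma (-1.44 ± 0.08), as were the nuclear protein Ubn1 (-1.31 ± 0.04) and the cingulin-like Cgnl1, not above background in ESC and at least 1.97-fold lower there. With spike-in scaling 9 were higher in ESC and 5 in soma. The 2 probes of Cxadr, an adhesion molecule and virus receptor, disagreed: the brighter differed by 0.05 and the other by 2.45.

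Polarity genes, whose complexes place the tight junction, were split. Of 21 tested, 9 were higher in ESC, 9 in soma and 3 did not pass, with a median of -0.05, also over the 19 above background on all 6 arrays. Crb3, the Crumbs protein of epithelia, had signals of 7.37 to 9.37 in soma, where it was not above background, and 226 to 251 in ESC, at least 9.34-fold higher; its dimmer probe differed by 3.67. Llgl2, a lateral polarity protein, differed by 3.07 ± 0.10. The brightest probe of Prkcz, an atypical protein kinase C, differed by 2.19 ± 0.35 and its other probes by 3.42 and 4.62. Crb2, another Crumbs protein, had signals of 648 to 1028 in soma and 51.3 to 128.5 in ESC, a difference of -2.90 ± 0.37. The scaffold Mpdz (-2.86 ± 0.21, well above background on 2 ESC arrays) and the angiomotin Amot (-1.27 ± 0.26) were also higher in soma. The split followed the scaling, with 6 and 9 under spike-in scaling and 9 and 7 with the array median.

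Proteins that bind or cleave claudins, and factors known to act on claudin genes, had the largest median difference of the 5 junction lists, a value that rests on genes in the background of soma. Of 20 tested, 14 were higher in ESC and 6 in soma, with a median of 3.57, and the counts were equal under quantile, array median and spike-in scaling. The 12 above background on all 6 arrays had a median of 0.64, with 7 higher in ESC and 5 in soma: St14, Ovol1, Cdx2, Hnf4a and Elf3 passed the filter through ESC alone, Wnk4 through soma alone, and Spint1 and Grhl2 were above background on 2 soma arrays. Spint1, an inhibitor of the membrane protease matriptase, had signals of 16.0, 30.7 and 38.1 in soma and 3301, 3004 and 3194 in ESC, a difference of 7.32 ± 0.34. Matriptase itself (St14), which cleaves Epcam, had signals of 22.4 to 27.4 in soma, not above background, and 1638 to 1912 in ESC, at least 71.2-fold higher. Grhl2, a Grainyhead factor known to activate Cldn4, had signals of 25.9 to 52.6 in soma and 2639 to 3520 in ESC (6.71 ± 0.29). Epcam, which stabilises claudin-7 at the membrane, had signals of 80.5 to 116 in soma and 1561 to 1788 in ESC (4.46 ± 0.15).

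The 6 genes of that list with higher signal in soma were the transcriptional repressors Snai1, Snai2, Zeb1 and Zeb2, the kinase Wnk4 and the factor Ovol2. Snai2 had signals of 10200 to 10260 in soma and 159 to 194 in ESC, a difference of -5.44 ± 0.08. Zeb2 had signals of 6024 to 7065 in soma and 87.1 to 113 in ESC, a difference of -5.60 ± 0.14, and its other probe differed by -4.01. Zeb1 and Snai1 differed by -3.12 ± 0.07 and -2.03 ± 0.11. All 4 repressors were lower on every ESC array than on any soma array, as were Wnk4, not above background in ESC and at least 14.1-fold lower there, and Ovol2 (-0.53 ± 0.07). Binding of these factors at any claudin gene was not measured. Epcam, Zeb1, Snai1, Ovol2, Ovol1, Cdx2, Hnf4a and Elf3 were named after their values were seen.

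**Figure D5:**
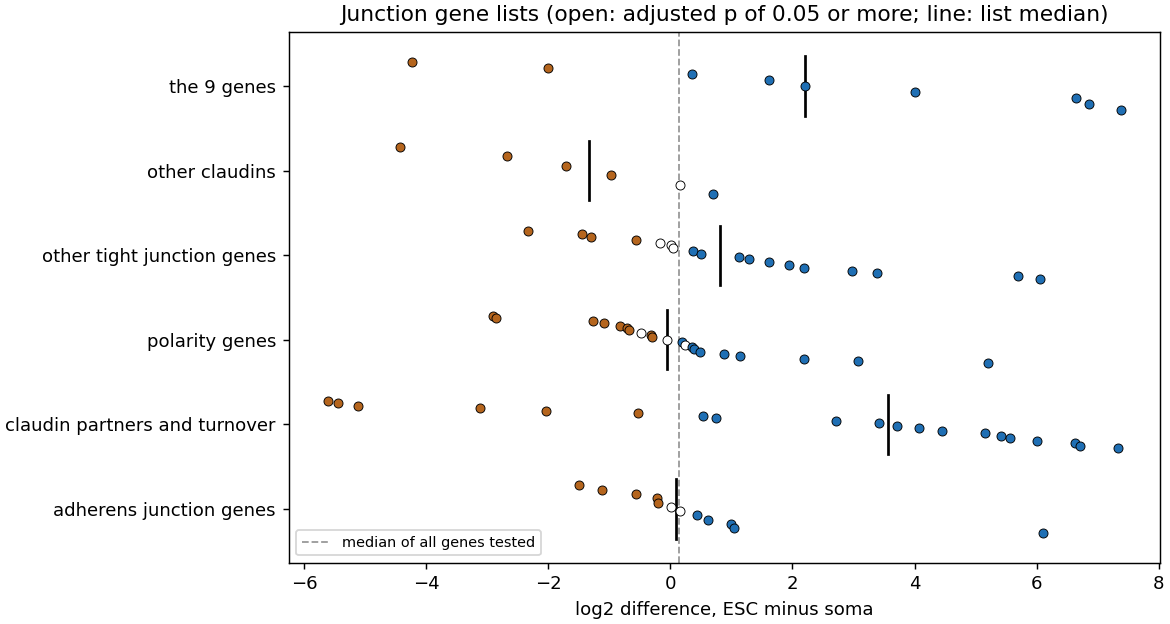
Log2 difference, ESC minus soma, of each tested gene (points) in 6 lists, with the list median (black line) and the median of all genes tested (dashed line, 0.14). Filled points passed the threshold; the list medians run from -1.34 (other claudins) to 3.57 (claudin partners and turnover).

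Adherens junction genes, which join cells just below the tight junction, were split like the polarity genes. Of 12 tested, 5 were higher in ESC, 5 in soma and 2 did not pass, with a median of 0.09, or -0.10 over the 10 above background on all 6 arrays. E-cadherin (Cdh1), the epithelial cadherin, had signals of 101, 144 and 156 in soma and 7318, 6455 and 6399 in ESC, a difference of 6.11 ± 0.19 (69.1-fold). N-cadherin (Cdh2) had signals of 6483 to 7232 in soma and 1377 to 2331 in ESC, a difference of -1.49 ± 0.20. Among the dimmer genes, plakoglobin (Jup, 1.05 ± 0.19) and afadin (Afdn, 0.99 ± 0.06) were higher in ESC, each well above background on 1 soma array. Nectin1 (-1.11 ± 0.10) and Nectin2 (-0.56 ± 0.08), adhesion molecules that bind afadin, were higher in soma, though a second Nectin2 probe differed by 0.06 and did not pass (adjusted p = 0.634 by limma). With the array median 7 were higher in ESC and 3 in soma.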

How the data were processed

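Per the labels' protocols, 100 ng of total RNA per sample, with spike-in RNA added, was turned into cRNA carrying Cy3 (low input kit). The deposited processed signal is an intensity made by Feature Extraction 10.7.3.1, which subtracted background and removed spatial trends on each array, per the file headers; arrays were not put on 1 scale. A series matrix of log2 values was also deposited, with neither scale nor centring stated, and it served as an alternative.

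The log2 processed signal was scaled to the 75th percentile of 39429 gene probes. Control spots (1377) and outlier-marked gene spots (180 to 223 per array) were dropped, which left 15 probe values missing. Probes were kept when the scanner software marked them well above background on all arrays of at least 1 group. Each gene was represented by the kept probe with the highest mean over the 6 arrays, and probes without a symbol were kept under their identifier. Between 56.0% and 63.2% of probes per array were well above background, no spot was saturated, and the number of arrays limits the precision. Symbols came from RefSeq transcripts (66.1% of gene probes). The array's grid and the gene table use different builds, so gene positions are given by order alone. The comparison was ESC minus soma in limma 3.58.1 (R 4.3.3), two-sided, with Benjamini-Hochberg adjustment over 19670 genes; list and named-gene errors are the SE of that fit, and the threshold was 0.05. The fit was tried on simulated data with differences planted in a small part of the probes, independent noise and no slide or scan effect. That run checks the code and does not bear on the calls made here. Where a group had a gene on none of its arrays, the fold is a bound under this processing.

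The 9 genes, the 5 junction lists and the marker lists (Sertoli, endothelial, mesonephric epithelium, mesothelium, germ cell, pluripotency, interstitial and Leydig, blood cell, myelin and Schwann) were chosen with earlier results of these data known. From each junction list the 3 kept genes with the largest difference in each direction past the threshold are named. Alternatives covered scaling (quantile, array median, spike-in), normexp correction (offset 50, on the spots' median signal), the filter, probe averaging, the matrix, the variance model, slide, scan and replicate blocks, and leaving out each array. They also covered the shared slide alone and a fit of every probe as its own feature.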

Additional observations from a re-analysis of the deposited data

How the results depend on the processing

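Of 175 alternative values for the 9 genes, 174 kept their direction and their side of the threshold. The other was Tjp1 with spike-in scaling (0.13, adjusted p = 0.193 by limma). Not all alternatives could move a difference: the variance model, the replicate block and the fit without the filter changed only the p-values of the 9. So did fitting every probe as its own feature, and the filter on all 6 arrays for the genes it kept. Averaging a gene's probes moved only the Cldn4 difference (6.06). The matrix and the scan block left all 9 differences nearly as they were. The count of 174 is therefore not one of independent checks. Keeping only probes well above background on all 6 arrays left 3 of the 9 genes higher in ESC and 1 higher in soma, since 5 genes were then not tested. Over all genes, that filter left 16082, with 7990 higher in ESC and 5674 in soma. With normexp correction the median difference of the 9 genes was 0.99, and over the fits without 1 array it was 1.98 to 2.45. Of all genes tested, 9172 were higher in ESC and 7537 in soma, against 7703 and 8514 with spike-in scaling and 10229 and 6534 with the array median. The adherens junction list had 3 genes higher in soma with the array median. Among the 9 genes, signals near the background limit the size of the differences of Cldn3, Cldn4, Cldn6, Ocln and Cldn11.

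Samples with the same replicate number did not deviate together (correlations -0.05, 0.07 and 0.03), so the numbers were not taken as pairs. With the replicate block, 16476 genes passed, against 16709 without it, and 7 and 2 of the 9 genes passed in ESC and soma.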

Other observations

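Genes beside the claudins on the chromosome did not share one direction. Mettl27 and Abhd11, the nearest tested genes on the outer sides of the adjacent pair Cldn4 and Cldn3, differed by 0.72 ± 0.04 and 1.83 ± 0.05 (log2, ESC minus soma, SE of the limma fit), and Stx1a, the gene after Abhd11, by -1.56 ± 0.07. Beside Cldn6, Tnfrsf12a differed by 1.63 ± 0.10, and the next gene, Hcfc1r1, by -0.04 ± 0.08 (adjusted p = 0.635). Slc2a4 and Elp5, on either side of Cldn7, differed by -2.83 ± 0.04 and 0.60 ± 0.06. On either side of Ocln, Gtf2h2 differed by 1.10 ± 0.06 and Marveld2, which encodes the tricellular junction protein tricellulin, by 1.95 ± 0.21. Beside Cldn5, Septin5 was not above background in ESC and at least 6.38-fold lower there, like Cldn5 in direction, and Cdc45 on the other side differed by 0.78 ± 0.06. The nearest tested genes beside Cldn11 were Skil, higher in ESC (1.27 ± 0.08), and Kcnmb2, not above background in ESC and at least 2.23-fold lower there. Past Cldn9, the nearest tested gene, Pkmyt1, differed by 0.18 ± 0.04. Beside Tjp1, Nsmce3 differed by 0.02 ± 0.05 (adjusted p = 0.78 by limma) and Tarsl2 by -0.39 ± 0.08. These neighbours were looked at after the values of the 9 genes were known.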
